A study of Arabidopsis thaliana with 18 samples.

Results

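The comparison described here set germinating seed of athb15, an Arabidopsis thaliana line with a T-DNA (a piece of bacterial plasmid DNA) inserted at ATHB15, against seed of the wild-type accession Col-0. It covered 4 of the 18 RNA-seq libraries of the experiment, namely the libraries whose labels name athb15 (2) and Col-0 (2). All genes with enough counts for a test were included, which gave 19100 of the 37336 genes in the table, and 11015 genes had no count at all. Both genotypes were grown side by side, and their seed was kept cold and dark before it spent 24 h in continuous light (24 h SL), on medium that contained sucrose. The other 14 libraries came from 7 further lines, each homozygous for a T-DNA at another transcription factor gene (vnd2, smb, hat2, lmi1, athb25 and those labelled obp1 and wrky14). Per the study's methods, every line carried a single insertion, and both libraries of a genotype were made from seed of multiple plants mixed together. The sources do not say if these were separate mixtures, so the p-values measure the spread between these libraries, which may be technical. Each genotype is 1 line, so the mutation and anything else that differs between the line and Col-0 cannot be told apart.

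ATHB15, also known as CORONA, belongs to the class III homeodomain-leucine zipper (HD-ZIP III) transcription factors together with PHB, PHV, REV and ATHB8. These proteins set the upper side of leaves and cotyledons, maintain the shoot meristem and pattern the vascular tissue. Their mRNAs are cut at a site paired with the microRNAs miR165 and miR166, and the small LITTLE ZIPPER proteins bind them in inactive dimers.

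The matching bases are shown because the same site lies in all family members, so the pairing of each transcript can be compared. The microRNAs were read from RefSeq (TAIR10.1) at chr1:78932-78952 (minus strand) and chr2:19176241-19176261 (plus strand), with bases 2 to 8, the seed, in capitals, and the transcript sites with the bases opposite the seed in capitals.
miR165a-3p: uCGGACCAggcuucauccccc
miR166a-3p: uCGGACCAggcuucauucccc
ATHB15: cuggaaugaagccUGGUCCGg
PHB: uugggaugaagccUGGUCCGg
PHV: uugggaugaagccUGGUCCGg
REV: cugggaugaagccUGGUCCGg
ATHB8: cugggaugaagccUGGUCCGg
The site of ATHB15 paired with 18 of the 21 bases of miR166a-3p and 17 of the 21 of miR165a-3p. The sites of PHB, PHV, REV and ATHB8 paired with 17 bases of miR166a-3p and 18 of miR165a-3p. In each gene the site was coding, crossed 1 exon junction and matched all 7 seed bases. The 9 precursor genes of these microRNAs were not analysed here.

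The targeted gene was examined first. ATHB15 (AT1G52150) lies on the minus strand of TAIR10 chromosome 1, from 19409688 to 19414764. It had 14.0 and 13.6 CPM (counts scaled to library size by the trimmed mean of M-values, TMM) in athb15, against 30.4 and 32.5 CPM in Col-0. Both athb15 libraries were the lowest of all 18, and the 14 libraries of the other mutants held 25.3 to 39.7 CPM. The line thus kept 43.9% of the Col-0 level (13.8 ± 0.306 CPM in athb15 and 31.4 ± 1.51 CPM in Col-0, SD, n = 2 each). The log2 fold change was -1.19 (SE 0.104, 95% interval -1.41 to -0.97, edgeR quasi-likelihood adjusted p = 7.46e-06). Against lmi1, libraries labelled wrky14 and the mean of the other 7 mutants it was -1.45, -1.22 and -1.23, with edgeR adjusted p of 5.29e-08, 1.7e-06 and 9.69e-08.

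The genotyping primers of the line are given because they were designed to bracket the insertion. Each matched the nuclear genome exactly once.
athb15 RP (chr1:19414102-19414122, plus strand): agtccaccacaaactccacag
athb15 LP (chr1:19415335-19415355, minus strand): tggaagtgctgagttcgaaac
The pair spans 1254 bases of the uninterrupted locus, made of 663 bases of the gene's 5′ end and 591 bases upstream of it. RP lies in the first exon (19413753 to 19414764), and its outer end is 141 bases upstream of the start codon, whose first base is 19413961. The coding sequence thus lies outside the bracketed stretch. The counts sum all exons, so they do not show whether the remaining reads came from complete transcripts.

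The other HD-ZIP III genes did not pass the test against Col-0. PHB was at 97.1 and 96.3 CPM in athb15 and 85.7 and 100.3 CPM in Col-0, with a log2 fold change of 0.05 (95% interval -0.12 to 0.23). REV was at 71.0 and 68.6 CPM in athb15 and 58.2 and 66.9 CPM in Col-0 (0.16, 95% interval -0.02 to 0.33). PHV changed by 0.06 (-0.13 to 0.24) and ATHB8 by 0.06 (-0.11 to 0.24). The athb15 libraries stood above both Col-0 libraries for REV and ATHB8, and lay within the Col-0 range for PHB and PHV. Of all genes tested, 44.1% had no overlap between athb15 and Col-0 libraries, in either direction. Per kilobase of exon (RPKM, from the TMM-scaled counts), ATHB15 was at 3.87 and 3.75 in athb15 and 8.39 and 8.98 in Col-0. On that scale it lay below ATHB8 in athb15, where ATHB8 had 5.33 and 5.14 RPKM. In Col-0, ATHB8 had 4.91 and 5.09 RPKM, and PHV overlapped ATHB15 with 7.27 and 8.41 RPKM. PHB was the most abundant member in both genotypes, at 30.8 and 30.6 RPKM in athb15 and 27.2 and 31.9 RPKM in Col-0.

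**Figure D1:**
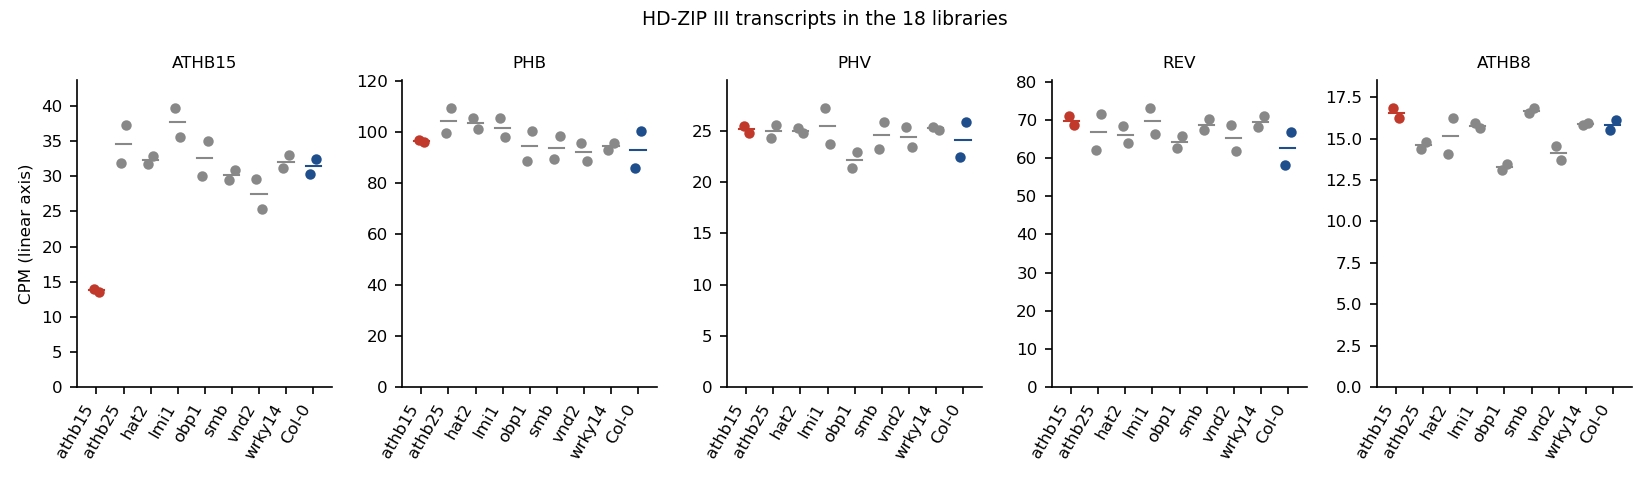
CPM (vertical axes, linear, from 0) of the 5 HD-ZIP III genes in athb15 (red), the other mutants (grey) and Col-0 (blue), with 2 library points and a bar at their mean for each genotype. ATHB15 in athb15, at 14.0 and 13.6 CPM, lies below every other library, while the athb15 points of PHB, PHV, REV and ATHB8 lie among or next to those of the other lines.

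The LITTLE ZIPPER genes were expressed at low levels. ZPR3 had 5.26 and 4.76 CPM in athb15 and 5.16 and 4.59 CPM in Col-0, and neither it, ZPR1 (log2 fold change -0.21, SE 0.226) nor ZPR4 (0.44, SE 0.301) passed the test. ZPR2 held at most 2 counts in any library and was not tested. None of the 20 tested genes nearest to ATHB15 (10 on either side, 19220236 to 19476234) was misexpressed by edgeR or by DESeq2. By edgeR 0.147% of all genes tested were misexpressed, so this says little about 20 genes. An unadjusted p under 0.05 was reached by 3 of the 20 and by 9.83% of all genes tested. The log2 fold changes of the 20 ran from -1.18 to 0.48, with a smallest edgeR adjusted p of 0.334.

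Against Col-0, 28 genes were misexpressed in athb15, meaning an edgeR quasi-likelihood adjusted p (Benjamini-Hochberg) under 0.01. They are 0.147% of the genes tested. Of these, 7 rose (0.0366%) and 21 fell (0.11%), and 14 changed at least 2-fold. The rises ran from 0.51 to 3.97 on the log2 scale and the falls from -0.36 to -2.70, while the median of all genes tested was -0.00437. An unadjusted p under 0.05 was reached by 1877 genes, or 9.83%. DESeq2's Wald test called 71 genes, which included all 28. Leaving out athb15 replicate 1 left 8 calls and leaving out athb15 replicate 2 left 11, while 13 were made without Col-0 replicate 1 and 12 without Col-0 replicate 2. Under every other filter, scaling, tool and model and on leaving out each library, 7 genes kept the call at an adjusted p under 0.01: ATHB15, AT3G01345, AT5G33395, AT5G35935, MSRB5, SDI1 and PRX62. Of these, AT5G35935 and MSRB5 changed less than 2-fold. Every other called gene named below lost it on leaving out at least 1 library.

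The largest rise was that of AT3G01345 (chromosome 3, 129138 to 130749), which RefSeq lists as coding for an uncharacterized protein. It held 744 and 1122 counts in athb15, or 38.3 and 46.1 CPM, against 44 and 84 counts, or 2.10 and 3.18 CPM, in Col-0. The other 14 libraries held 2.61 to 6.95 CPM, so the athb15 libraries stood far above all 16 others. The log2 fold change was 3.97 (SE 0.193, edgeR adjusted p = 5.85e-10) against Col-0, and 3.48 (SE 0.105, edgeR adjusted p = 1.14e-13) against the mean of the other 7 mutants.

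AT5G33395 (chromosome 5, 12664506 to 12666192), annotated as a pseudogene, was also highest in athb15. It was at 21.8 and 23.2 CPM in athb15 and 9.84 and 9.74 CPM in Col-0, which gave a fold change of 1.20 in log2 units (SE 0.112, edgeR adjusted p = 1.02e-05). The lines fell into steps for this locus, with 14.6 and 15.1 CPM in athb25, 8.08 and 7.26 CPM in libraries labelled wrky14, and 2.54 to 3.97 CPM in hat2, lmi1, smb, vnd2 and libraries labelled obp1. Its upstream neighbour AT5G33390 (12661708 to 12663496), annotated as a glycine-rich protein gene, ends 1009 bases before it with no gene between them. AT5G33390 had 4.17 and 4.76 CPM in athb15 and 2.96 and 2.80 CPM in Col-0. This difference of 0.64 on the log2 scale was not significant (edgeR adjusted p = 0.132). Against the mean of the other 7 mutants the log2 fold change of AT5G33390 was 1.85 (SE 0.135, edgeR adjusted p = 1.66e-07). Its order over the genotypes from athb15 through athb25, Col-0 and libraries labelled wrky14 down to the remaining lines was the one seen for AT5G33395.

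A second pseudogene, AT5G35935 (chromosome 5, 14083388 to 14089891), gave another picture. It had 37.5 and 36.5 CPM in athb15, against 17.5 and 20.5 CPM in Col-0 and 8.62 and 7.49 CPM in lmi1. The remaining 6 mutants held levels like that of athb15, from 32.5 to 41.3 CPM, so it was Col-0 and lmi1 that stood apart. The log2 fold changes against Col-0 (0.96, SE 0.0892, edgeR adjusted p = 1.02e-05) and against lmi1 (2.19, SE 0.0972, edgeR adjusted p = 1.13e-10) were both called, and the value of 0.32 against the mean of the other 7 mutants was not (edgeR adjusted p = 0.0779). AT5G35935 lies 1417195 bases from AT5G33395.

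**Figure D2:**
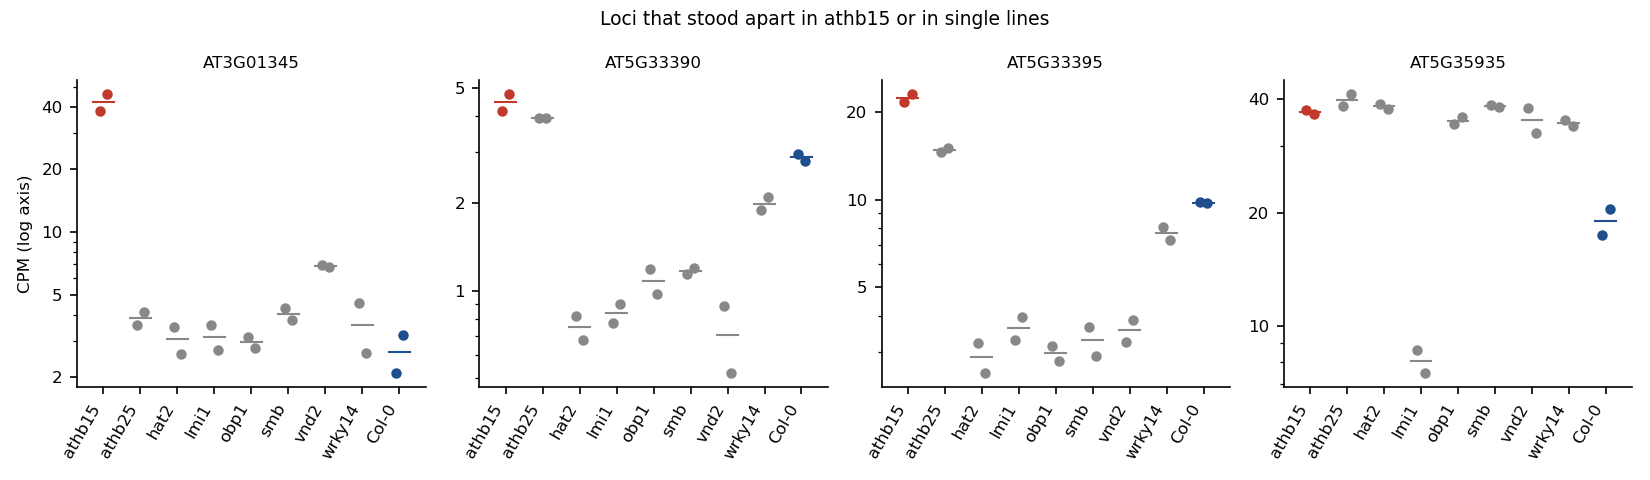
CPM (vertical axes, log scale) of AT3G01345, AT5G33390, AT5G33395 and AT5G35935 by genotype, with athb15 in red, other mutants in grey and Col-0 in blue, 2 library points and a bar at their mean. AT3G01345 is high in athb15 alone (38.3 and 46.1 CPM), AT5G33390 and AT5G33395 step down from athb15 over athb25 and Col-0, and AT5G35935 is low in Col-0 and lmi1.

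The other rises were smaller than those of AT3G01345 and AT5G33395. SDI1 (AT5G48850), a gene induced by sulfur deficiency that restrains glucosinolate synthesis, was at 22.3 and 20.7 CPM in athb15 and 9.22 and 9.81 CPM in Col-0 (1.17, SE 0.132, edgeR adjusted p = 0.000129). MSRB5 (AT4G04830), which reduces oxidised methionine, was at 25.3 and 23.5 CPM in athb15 and 12.5 and 13.4 CPM in Col-0, a log2 fold change of 0.91 (SE 0.1). MLP31 (AT1G70840), of the major latex protein family, had 12.1 and 15.3 CPM in athb15 and 7.35 and 4.96 CPM in Col-0 (log2 fold change 1.18). For AT5G23380, which encodes a DUF789 protein, 23.2 and 25.1 CPM in athb15 stood against 17.2 and 16.7 CPM in Col-0. Col-0 held the lowest 2 of the 18 values for AT5G23380, and the other mutants ran from 18.8 to 29.5 CPM. For SDI1 and MSRB5 the range of the other mutants enclosed both athb15 and Col-0, and for MLP31 it reached 59.5 CPM.

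Sulfur-responsive genes were looked up beside SDI1 after its value was seen, so they carry no test as a group. LSU1 (0.979 and 1.72 CPM in athb15, 0.287 and 0.189 CPM in Col-0) differed by 2.55 on the log2 scale with an edgeR adjusted p of 0.0175. The sulfate transporter gene SULTR1;2 (0.56, edgeR adjusted p = 0.0246) and BGLU28 (1.02, edgeR adjusted p = 0.0206) also missed the threshold. APR3, for a sulfate-reducing enzyme, differed by 0.09, LSU2 by 0.44 and AT1G04770, the closest relative of SDI1, by 0.13.

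Among the falls besides ATHB15 were 3 class III peroxidase genes. Class III peroxidases are secreted enzymes that use hydrogen peroxide to cross-link or loosen wall polymers. PRX62 (AT5G39580) was at 10.4 and 10.2 CPM in athb15 and 27.0 and 22.7 CPM in Col-0, or -1.27 in log2 units (SE 0.144, edgeR adjusted p = 0.000137). PRX71 (AT5G64120) was at 1.19 and 2.01 CPM in athb15 and 7.74 and 8.30 CPM in Col-0 (-2.29, SE 0.334, edgeR adjusted p = 0.00205). PRX69 (AT5G64100), which is separated from PRX71 by 7009 bases and 1 gene on chromosome 5, was at 16.8 and 18.7 CPM in athb15 and 39.7 and 37.5 CPM in Col-0 (-1.12, SE 0.137, edgeR adjusted p = 0.000293). For PRX62 and PRX71 both Col-0 libraries were the highest of the 18. For PRX69 the other mutants ran from 6.44 to 39.2 CPM and overlapped both genotypes.

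The list of 19 class III peroxidases held 8 tested members. Of these, the 3 above fell and none rose, where 0.11% of all genes tested fell. PRX4 had 0.773 and 0.698 CPM in athb15 and 2.15 and 2.73 CPM in Col-0 (-1.74, edgeR adjusted p = 0.031), and PRX16 had 4.28 and 4.47 CPM in athb15 and 8.41 and 7.09 CPM in Col-0 (-0.81, edgeR adjusted p = 0.0476). PRX17 had 52.5 and 45.8 CPM in athb15 and 49.4 and 47.7 CPM in Col-0 (0.02, edgeR adjusted p = 0.983). The median log2 fold change of the 8 was -1.19 against Col-0 and -0.16 against the mean of the other 7 mutants. Members of this list were chosen with earlier results of these data known. Of the 18 tested genes that RefSeq describes as peroxidase superfamily proteins, a family looked up after the calls were seen, the same 3 fell, and the median was -0.17. The 11 untested members held at most 9 counts in any library.

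PMEPCRB (AT4G02330), a pectin methylesterase, was at 4.28 and 4.15 CPM in athb15 and 10.9 and 10.7 CPM in Col-0 (-1.36, SE 0.16, edgeR adjusted p = 0.000198). XTH18 (AT4G30280), which cuts and rejoins xyloglucan, was at 5.26 and 4.93 CPM in athb15 and 14.7 and 11.3 CPM in Col-0 (-1.35, SE 0.206, edgeR adjusted p = 0.00344). Both were highest in Col-0 among the 18 libraries. XTH24, a relative of XTH18, was the gene just outside the threshold, with 1.13 and 1.15 CPM in athb15 and 2.63 and 3.26 CPM in Col-0 (-1.37, edgeR adjusted p = 0.0108), while AT2G43860, a pectin lyase-like protein gene, was the one just inside it (edgeR adjusted p = 0.00979). AT2G43860 had 16.9 and 20.6 CPM in athb15 and 31.4 and 29.3 CPM in Col-0 (-0.69), and the other mutants spread from 0.253 to 36.8 CPM. Their families were looked up by RefSeq description after the calls were seen, so each holds at least 1 call by choice. PMEPCRB was the 1 call among 36 tested pectin methylesterases and inhibitors, with a median log2 fold change of -0.13. XTH18 was the 1 among 17 xyloglucan endotransglucosylases (median -0.28), and AT2G43860 the 1 among 41 pectin lyase-like genes (median -0.04). Of all genes tested, 0.11% fell.

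Promoters of peroxidase genes and of AT3G01345 are shown to compare falling neighbours with the largest rise. They were read from RefSeq (TAIR10.1) as the 250 bases before the annotated start of the gene, in the direction of transcription, with matches to the W-box (TTGACC or TTGACT on either strand), the motif bound by WRKY factors, in capitals.
PRX71 (chr5:25661008-25661257, minus strand): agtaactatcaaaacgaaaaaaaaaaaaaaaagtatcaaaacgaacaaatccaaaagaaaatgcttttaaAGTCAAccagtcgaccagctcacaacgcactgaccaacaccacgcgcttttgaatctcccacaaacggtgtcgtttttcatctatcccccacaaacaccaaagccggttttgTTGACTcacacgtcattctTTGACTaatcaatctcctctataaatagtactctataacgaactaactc
PRX69 (chr5:25652248-25652497, minus strand): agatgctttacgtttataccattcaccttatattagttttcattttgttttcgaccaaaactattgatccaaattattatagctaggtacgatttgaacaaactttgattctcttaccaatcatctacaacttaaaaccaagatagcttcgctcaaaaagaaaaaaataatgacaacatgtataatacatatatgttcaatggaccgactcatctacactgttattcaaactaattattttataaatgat
AT3G01345 (chr3:128888-129137, plus strand): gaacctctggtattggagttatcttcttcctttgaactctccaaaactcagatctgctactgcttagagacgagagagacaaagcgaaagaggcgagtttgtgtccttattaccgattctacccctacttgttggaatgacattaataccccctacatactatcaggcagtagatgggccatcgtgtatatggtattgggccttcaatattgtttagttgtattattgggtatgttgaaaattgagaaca
The window of PRX71 held 3 matches, that of PRX62 held 1, and those of PRX69 and AT3G01345 held 0. A W-box stood in 9 of the 20 windows of falling genes other than ATHB15 (45.0%) and in 27.4% of the 19028 windows read for tested genes. The core of the HD-ZIP motif (AATNATT, its own reverse complement) stood in 6 of the 20 (30%) and in 30.8% of the 19028. A TATA box (TATAAA on either strand) stood in 14 of the 20 (70%) and in 45.3% of the 19028. The G-box (CACGTG) stood in 2 of the 20 (10%) and in 7.7% of the 19028. Letters that match a motif are a description of the window and were not tested as binding sites.

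**Figure D3:**
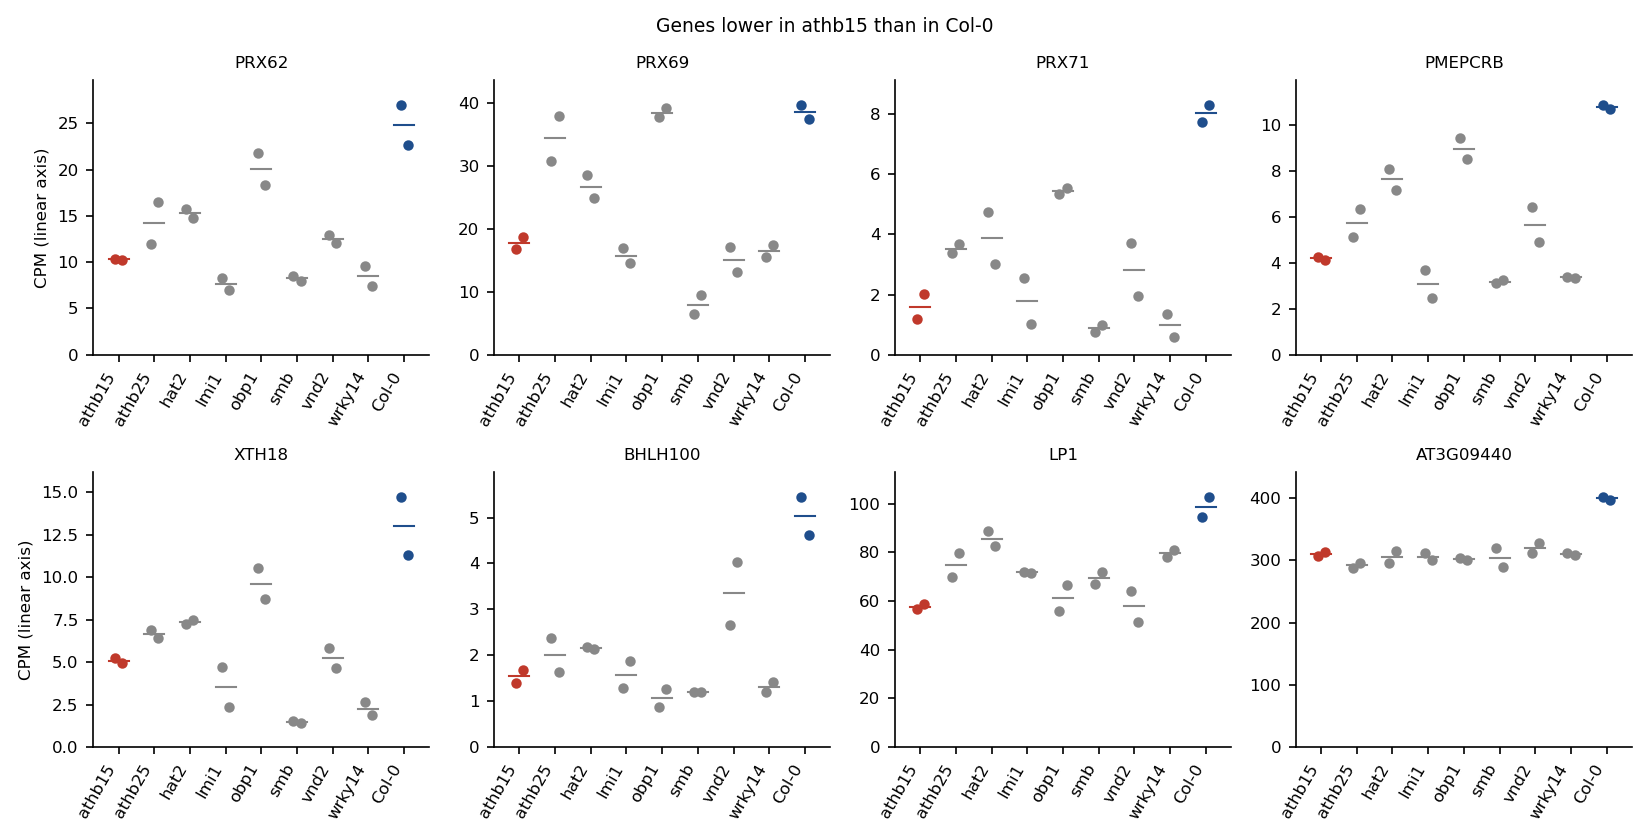
CPM (vertical axes, linear, from 0) of 8 genes lower in athb15 than in Col-0, by genotype, with athb15 in red, other mutants in grey and Col-0 in blue, 2 library points and a bar at their mean. In PRX62, PRX71, PMEPCRB, XTH18, BHLH100, LP1 and AT3G09440 both Col-0 points lie above all 16 mutant points, and in PRX69 libraries labelled obp1 reach the Col-0 level.

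LP1 (AT2G38540), a secreted lipid transfer protein, was at 56.7 and 58.7 CPM in athb15 and 94.4 and 102.7 CPM in Col-0 (-0.77, SE 0.0967, edgeR adjusted p = 0.000352). CER1 (AT1G02205), needed for the alkanes of cuticular wax, was at 25.2 and 29.4 CPM in athb15 and 42.7 and 45.6 CPM in Col-0 (-0.69, SE 0.1). Of the lipase-like GDSL proteins, AT3G48460 fell to 21.9 and 24.5 CPM in athb15, against 34.8 and 34.6 CPM in Col-0. AT5G22810 fell to 0.515 and 0.452 CPM in athb15, against 2.15 and 1.67 CPM in Col-0, and it overlaps AT5G22820. These were the 2 calls among 50 tested GDSL genes, whose median log2 fold change was -0.11. The GDSL family was looked up after these calls were seen, and 0.11% of all genes tested fell. Of the epidermis markers ATML1, PDF2 and PDF1 none passed the test and DESeq2 called 0. An unadjusted p under 0.05 was reached by 1 of these markers and by 9.83% of all genes tested. The summed level of the markers was 1064 to 1203 CPM in athb15, 1042 to 1360 CPM in the other mutants and 1296 to 1353 CPM in Col-0. In bulk seed, fewer cells of a type and less RNA per cell cannot be told apart, and the part of the epidermis in these falls was not tested.

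Some genes known from stress responses also fell. TCH3 (AT2G41100), a touch-induced calmodulin-like gene, showed the largest fitted fall on few counts. It had 6 and 5 counts in athb15 and 27 and 52 in Col-0, or 0.309 and 0.205 CPM against 1.29 and 1.97 CPM (log2 fold change -2.70, SE 0.441, edgeR adjusted p = 0.00708), and it overlaps AT2G09220 and AT2G41105. WRKY33 (AT2G38470), a regulator of defence against fungi, was at 3.61 and 4.76 CPM in athb15 and 8.17 and 7.92 CPM in Col-0 (-0.93, SE 0.152) and overlaps AT2G08965 and AT2G38480. Whether reads were assigned by strand is not stated, so reads of overlapping genes may have been exchanged. The defensin-like gene AT1G13609 had 8.61 and 8.46 CPM in athb15 and 16.4 and 16.1 CPM in Col-0. The touch genes TCH2 and TCH4, looked up after TCH3 was seen, differed by -0.39 and -0.46 and did not pass (edgeR adjusted p of 0.135 and 0.207).

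Heat shock protein 70 (HSP70) chaperones assist protein folding. AT3G09440 had the highest CPM and the smallest fall of the misexpressed genes, at 308 and 313 CPM in athb15 and 402 and 398 CPM in Col-0 (-0.36, SE 0.0615, edgeR adjusted p = 0.00886). It overlaps AT3G09430 and AT3G02205. Hsp70-2 (AT5G02490) was at 34.6 and 35.3 CPM in athb15 and 53.6 and 49.6 CPM in Col-0 (-0.56, SE 0.0836). HSP70 genes are near-identical in stretches and may share reads. Both were highest in Col-0, and the 14 libraries of the other mutants held 288 to 329 CPM for AT3G09440, around the athb15 level.

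Among the 13 tested genes of iron deficiency and iron storage, BHLH100 (AT2G41240), a factor induced by iron shortage, fell and none rose, where 0.11% of all genes tested fell. It was at 1.39 and 1.68 CPM in athb15 and 5.44 and 4.62 CPM in Col-0 (-1.69, SE 0.244, edgeR adjusted p = 0.00201). Its relatives BHLH38, BHLH39 and BHLH101 differed by -1.22, -1.43 and -1.15 on under 3 CPM and did not pass (edgeR adjusted p of 0.168, 0.0782 and 0.375). The ferritin genes FER1 (0.07), FER2 (0.23), FER3 (0.09) and FER4 (0.02), whose proteins store iron, did not pass. IRT1, the iron importer of the root, held 0 counts in every library.

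The remaining falls were of single kinds. AT1G78850, a mannose-binding lectin gene, had 18.7 and 19.3 CPM in athb15 and 35.1 and 35.1 CPM in Col-0 (-0.88). AT5G44380, of the berberine bridge enzyme family, had 8.14 and 9.19 CPM in athb15 and 17.96 and 14.7 CPM in Col-0 (-0.90). GulLO5 (AT2G46740), annotated as a lactone oxidase, had 4.64 and 6.24 CPM in athb15 and 12.4 and 10.8 CPM in Col-0 (-1.07). AT4G12870, for a lysosomal thiol reductase, had 14.6 and 13.4 CPM in athb15 and 22.2 and 20.7 CPM in Col-0 (-0.62). AT4G12870 stood at 11.3 to 16.7 CPM in the other mutants, so Col-0 lay apart from all 16 mutant libraries.

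The other 7 mutants gave a second reference that did not use the Col-0 libraries. For 14 of the 28 genes, all of them falls, both Col-0 libraries were the highest of the 18, which held for 2.03% of all genes tested. For 3 genes both athb15 libraries lay outside all 16 others, which held for 1.16% of all genes tested. Since the Col-0 and athb15 libraries entered the call, these counts are a description. Without any test, athb15 and Col-0 libraries did not overlap for 44.1% of the genes.

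Against the mean of the other 7 mutants 10 genes were misexpressed in athb15 (0.0524%), and 8 of them were higher. The comparison shares the athb15 libraries with the one against Col-0. Without either athb15 library 5 genes passed, and without vnd2 replicate 1 there were 17. ATHB15, AT3G01345 and AT5G33395 passed in both. The 20 falls other than ATHB15 had a median log2 fold change of -0.93 against Col-0 and of -0.17 against the other mutants. Against the other mutants, 6 of the 20 and 8.64% of all genes tested had an unadjusted p under 0.05. None of the 20 passed there by edgeR, and DESeq2 called 1. PRX62, for example, was at -0.18 (SE 0.119) and XTH18 at 0.22 (SE 0.179) against the other mutants. The 5 rises not called there had medians of 0.96 against Col-0 and 0.15 against the other mutants. Over the 25 genes called against Col-0 alone of these references, values against the other mutants ran from -0.70 to 0.66, and the smallest edgeR adjusted p was 0.0135, for AT2G43860. All these genes were picked by their call against Col-0, which favours larger values there. The 25 were also set apart by not passing against the other mutants, so these medians and this range are a description.

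**Figure D4:**
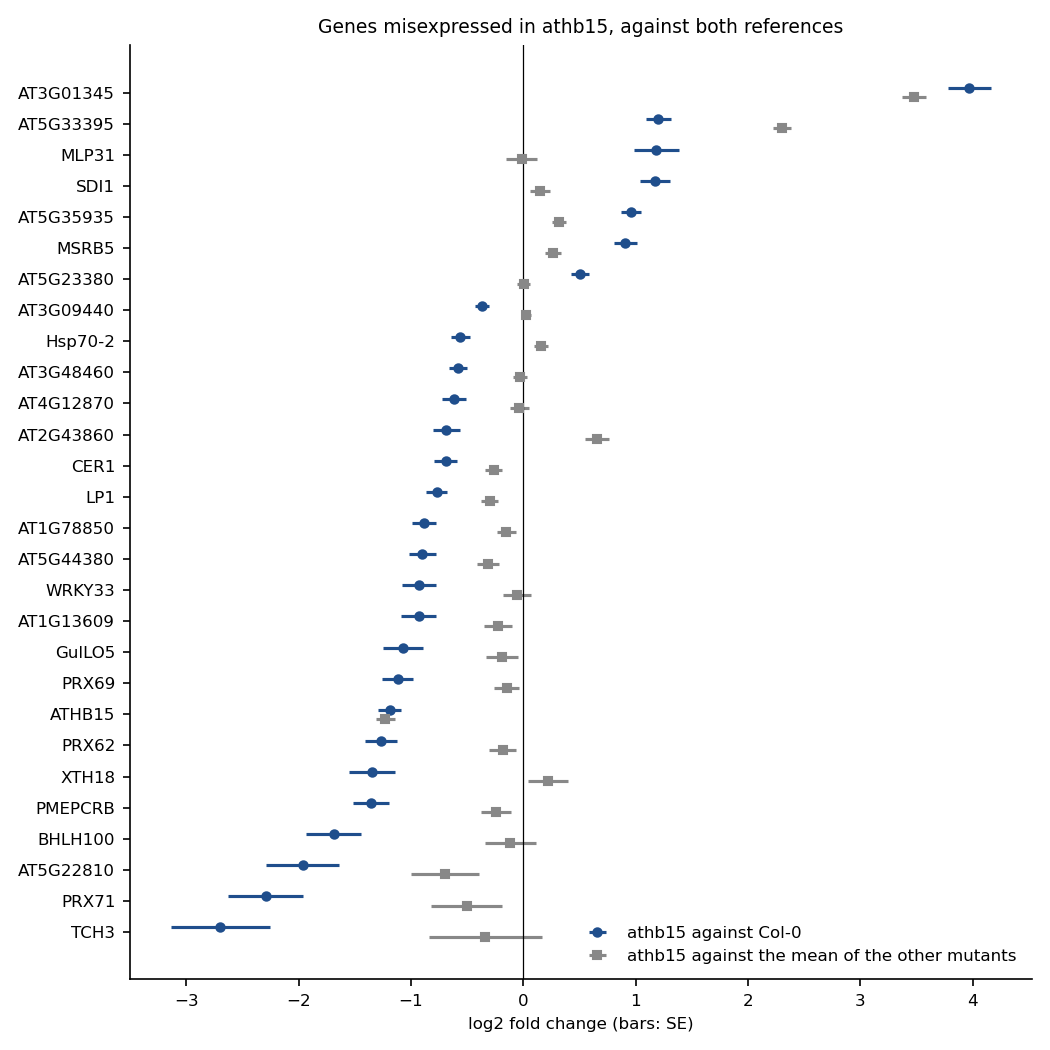
Log2 fold change of the 28 genes misexpressed in athb15 (horizontal axis, bars are SE) against Col-0 (blue circles) and against the mean of the other 7 mutants (grey squares), sorted by the value against Col-0. The symbols of ATHB15, AT3G01345 and AT5G33395 lie on the same side and far from 0, and the grey squares of the other genes lie between -0.70 and 0.66.

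Beside these, genes that passed against the other mutants included AT1G26680, for a B3 transcription factor, at 8.30 and 8.21 CPM in athb15, 3.66 to 7.63 CPM in the other mutants and 6.50 and 5.95 CPM in Col-0 (0.65, SE 0.0941, edgeR adjusted p = 0.00403). Both athb15 libraries were the highest of the 18 for AT1G26680. The GDSL gene AT1G71250, which overlaps AT1G71260, was at 19.2 and 17.7 CPM in athb15 and 9.23 to 21 CPM in the other mutants (0.63, edgeR adjusted p = 0.00596). For sks16, AT5G60530, AT1G67105 and HB25 levels were spread widely over the other mutants. Transcripts of sks16 spanned 0.0546 to 12.2 CPM, AT5G60530 0 to 2.46 CPM, AT1G67105 6.88 to 184.3 CPM, and HB25, the target of athb25, 6.78 to 80.2 CPM over the other mutants. None of these 4 passed the test against Col-0, with edgeR adjusted p of 0.959, 0.705, 0.315 and 0.837.

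Against lmi1, a line mutated in an HD-ZIP I gene, 11 genes were misexpressed (0.0576%), 7 of them higher in athb15. LMI1 itself (AT5G03790, RefSeq symbol HB51) was at 6.03 and 5.66 CPM in athb15 (2.24 against lmi1, SE 0.202, edgeR adjusted p = 2.65e-06). The non-coding RNA gene AT3G05945 was at 9.43 and 8.17 CPM in athb15 and differed by 2.80 (SE 0.163). AT1G64795, which overlaps AT1G64790, differed by -5.08 (SE 0.317) on 6 and 12 counts in athb15. LMI1, AT3G05945 and AT1G64795 were called neither against Col-0 nor against the mean of the other 7 mutants.

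Against libraries labelled wrky14, 14 genes were misexpressed (0.0733%), 10 of them higher in athb15. Without either athb15 library 5 calls were made, and there were 9 and 8 without replicates 1 and 2 labelled wrky14. WRKY14 was lower in athb15, with 1 and 4 counts (-6.44, SE 0.329, edgeR adjusted p = 6.91e-10). Its level in libraries labelled wrky14 reached 11.2 CPM, although the label names an insertion at WRKY14. In athb15 the gene was not called against Col-0. Whether the insertion or the label accounts for the level in libraries labelled wrky14 was not tested. Genes of β-glucosidases that act in defence were higher in athb15, namely BGLU21 (0.83), BGLU22 (0.63) and the myrosinase gene TGG1 (0.39). CSLD5, a cellulose synthase-like gene, was higher as well (0.93), and the ferritin gene FER1, which overlaps AT5G01595, was lower (-0.83). BGLU21 and BGLU22 may share reads. Against Col-0 these genes were at -0.04, 0.03, 0.07, -0.26 and 0.07, given in the order named, and did not pass.

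Gene lists covered pathways in which ATHB15 and its relatives are known to act, and also germination, seed reserves, peroxidases, iron and cell type markers. Few of their members were misexpressed. Of the HD-ZIP III, polarity, meristem, vascular and auxin lists only the first held a call, that of ATHB15. The lists held 184 genes, of which 175 were in the table and 158 were tested. Besides ATHB15, the 3 peroxidases and BHLH100, none was misexpressed, so 5 of 158 members were called, where 0.147% of all genes tested were. ATHB15 is the targeted gene, and the lists were chosen with earlier results of these data known, so the 5 calls are a description. The other 13 lists had 0 calls, which at a share of 0.147% says little about lists of this size. Per list, the unadjusted p was under 0.05 for 0 to 4 members of these 13, and for 9.83% of all genes tested. DESeq2 called 0 members of these lists. Of the 19 vascular and xylem genes tested, the median log2 fold change was 0.24 and 12 were positive. The xylem protease genes XCP1 and XCP2 had the highest values. XCP1 was at 1.91 and 2.34 CPM in athb15 and 0.907 and 0.909 CPM in Col-0 (1.23, SE 0.304, edgeR adjusted p = 0.0799), and XCP2 differed by 0.89 (edgeR adjusted p = 0.246). The VND genes, switches of vessel formation, were under 2 CPM and did not pass. ACL5 (-0.04, SE 0.0953), PXY (-0.02, SE 0.116) and LHW (-0.03, SE 0.0631), which act in vascular development, were measured more precisely.

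Polarity and meristem regulators had medians near 0. Of 12 polarity genes FIL was the lowest, at 67.3 and 74.7 CPM in athb15 and 82.6 and 83.7 CPM in Col-0 (-0.23, SE 0.0644, edgeR adjusted p = 0.156), and KAN2 followed at -0.22. Of 11 meristem regulators tested, STM, which keeps meristem cells undifferentiated, had 1.91 and 1.85 CPM in athb15 and 2.63 and 2.20 CPM in Col-0. STM was lowest in athb15 among the 18 libraries, yet the log2 fold change of -0.35 (SE 0.194) did not pass (edgeR adjusted p = 0.591). CUC1 (-0.42) and CUC2 (-0.53), which draw organ boundaries, did not pass either, and WUS held at most 5 counts a library. Auxin genes had a median of -0.05, with TAA1, for an enzyme of auxin synthesis, at -0.40 (SE 0.115, edgeR adjusted p = 0.168).

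Genes of germination were also near their Col-0 level in the medians or sums of their lists. The 10 gibberellin synthesis genes had a median of 0.04 and a range from -0.16 to 0.18. GA3OX2, for the enzyme that makes active gibberellin, was at 95.3 and 98.4 CPM in athb15 and 94.8 and 93.9 CPM in Col-0. The 9 alpha-expansins, which loosen walls of the growing embryo, summed to 4510 to 4648 CPM in athb15 and 4598 to 4688 CPM in Col-0. The 24 genes of cell cycle and DNA replication had a median of -0.08, and 6 of them had positive values. MCM4 (-0.21) and PCNA2 (-0.27) were among the 4 with an unadjusted p under 0.05, which 9.83% of all genes tested reached. The endosperm genes EPR1, MAN5, MAN6 and MAN7 summed to 4707 to 6497 CPM in athb15 and 5205 to 6427 CPM in Col-0, and ZOU held at most 1 count. The root cap markers SMB, BRN1 and BRN2 summed to 9.23 to 11.4 CPM in athb15 and 9.36 to 9.97 CPM in Col-0. Their log2 fold changes ran from -1.39 to 0.17, 1 had an unadjusted p under 0.05 (9.83% of all genes tested) and none passed.

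No seed reserve gene was misexpressed, and 11 of the 14 seed storage and oil body genes had positive values. The 14 seed storage and oil body genes summed to 2859 to 2995 CPM in athb15, against 1908 to 2319 CPM in Col-0 and 935 to 12598 CPM in the other mutants. The cruciferins CRU1 (0.56, SE 0.221) and CRU3 (0.66, SE 0.224) did not pass (edgeR adjusted p of 0.386 and 0.274). Of 10 late embryogenesis abundant genes, M17 was at 82.4 and 96.9 CPM in athb15 and 51.9 and 31.8 CPM in Col-0 (1.11, SE 0.208, edgeR adjusted p = 0.0175), and M10 differed by 0.97 (edgeR adjusted p = 0.1). Against the mean of the other 7 mutants CRU1, CRU3, M17 and M10 were at -0.05, -0.08, 0.09 and 0.04. Transcripts of these reserves decline as seed germinates, and whether seed stage had a part in the differences from Col-0 was not tested.

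**Figure D5:**
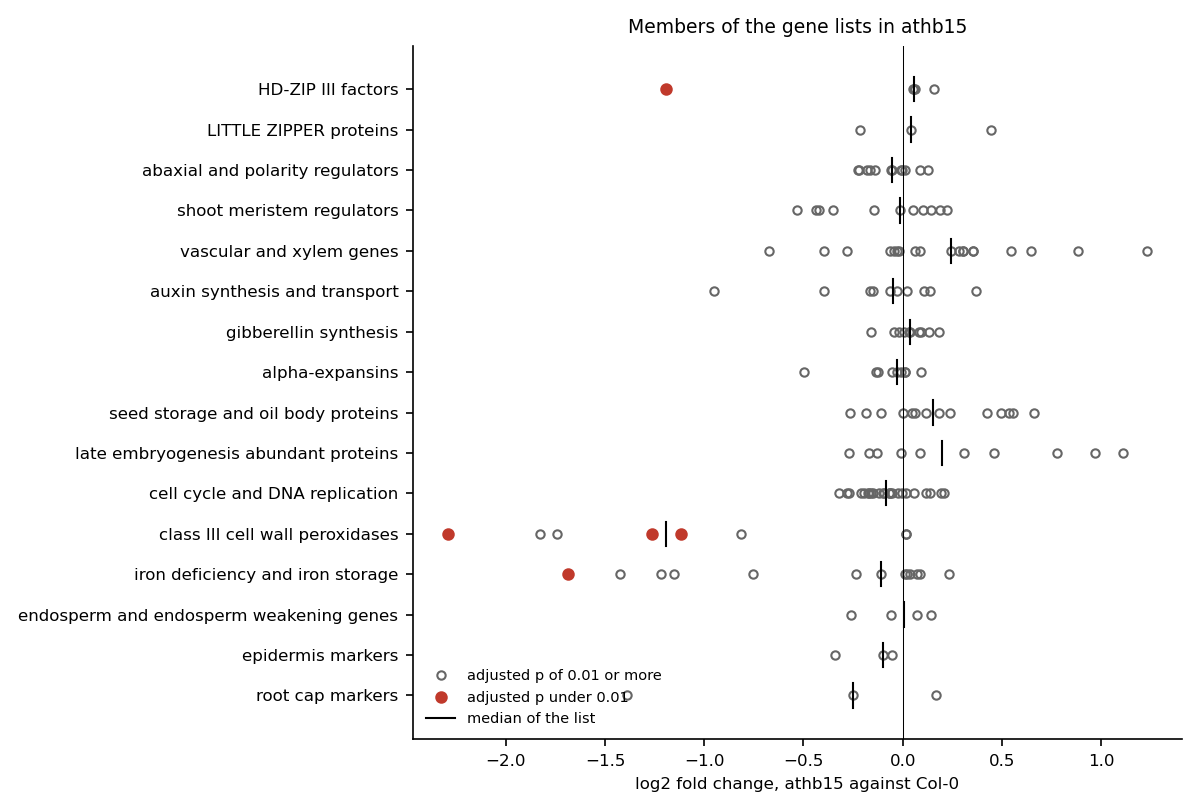
Log2 fold change of athb15 against Col-0 (horizontal axis) for each tested member of 16 gene lists, with misexpressed genes as filled red circles, other genes as open circles and a vertical bar at the median of each list. The 5 filled circles are ATHB15, PRX62, PRX69, PRX71 and BHLH100, and the medians of the lists other than the peroxidases lie between -0.25 and 0.24.

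Library totals were 19104153 and 24132567 counts in athb15 and 20692809 and 26112879 in Col-0, within the range of 18146206 to 33111743 over the experiment. Replicate counts differed by 2.21 times the sampling variance in athb15 and by 5.01 times in Col-0 (chi-square per degree of freedom), so neither pair held the same library under different names. Across genes, which are not independent replicates, log2 CPM values correlated with a Pearson's r of 0.997 within athb15 and 0.9964 within Col-0. The common biological coefficient of variation was 5.87%.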

How the data were processed

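The deposited values were whole-number counts of reads per gene. Per the study's methods and the submitters' processing notes, the authors trimmed reads of polyA-selected, stranded libraries with Trim Galore 0.4.2, aligned them to TAIR10 with HISAT2 2.0.5 and counted Araport11 genes with featureCounts 1.5.1. The counts were not normalized. The strand setting is not given in the sources used here. Symbols and sequences came from RefSeq TAIR10.1, which named 37051 of 37336 genes and placed 99.5% of these at the positions of the table. Intervals and SD cover neither pooling of seed nor amplification.

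Genes passing filterByExpr (19100) were fitted in edgeR 4.0.16 (quasi-likelihood, TMM, R 4.3.3), with all 18 libraries in 1 model of genotype, and called misexpressed at a Benjamini-Hochberg adjusted p under 0.01. The SE is the log2 fold change divided by the square root of F. athb15 was compared with Col-0, the mean of the other 7 mutants, lmi1 and libraries labelled wrky14. Alternatives were other filters, DESeq2 1.42.0 size factors and Wald test, smaller models, a replicate block, other thresholds and leaving out each library. The method was tested on simulated data. Named were ATHB15, every gene called against Col-0, up to 15 genes called in each other comparison and members of reported lists. Members and lists were chosen with earlier results of these data known, and sulfur, touch, motif and RefSeq family choices after values were seen.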

Additional observations from a re-analysis of the deposited data

How the results depend on the processing

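Without a count filter, which raised the genes tested to 26321 and made edgeR's prior degrees of freedom infinite, the calls were 285 against Col-0, 181 against the other 7 mutants, 225 against lmi1 and 287 against libraries labelled wrky14, and 19 list members were called. DESeq2's Wald test gave 71 against Col-0 and 42 against libraries labelled wrky14. Models of the groups compared gave 118 against Col-0, 17 against lmi1 and 55 against libraries labelled wrky14. An adjusted p under 0.05 gave 105 against Col-0, 19 against the other 7 mutants and 48 against libraries labelled wrky14, and a required 2-fold change left 14 against Col-0 and 7 against libraries labelled wrky14. Leaving out 1 library gave 8 to 13 calls against Col-0, 5 to 17 against the other 7 mutants, 10 to 14 against lmi1 and 5 to 9 against libraries labelled wrky14, where a lone library was assumed to vary like the other groups. The replicate numbers showed no pairing of athb15 with Col-0 (r = -0.0358 between their deviations). Over all 36 pairs of genotypes r ran from -0.241 to 0.261, with 7 pairs over 0.1. The replicate block left 19 of the 28 calls. For single genes, 590 of 745 recomputed values kept direction and call, 155 lost the call and 0 changed sign.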
